A study of Mus musculus with 8 samples.

Results

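The H/ACA box small nucleolar RNAs described here are 49 annotated rows of the 5518 small RNA rows that the count tables hold. They are the rows whose gene symbol starts with Snora in either case, without Snora21, Snora36b and Snora81 and without rows in a pair of windows on chromosomes 9 and 2. The rule also keeps 1 of any overlapping member rows with identical counts, and no member was dropped for this. The 49 rows carry 41 different symbols, because SNORA17, SNORA43, SNORA50 and SNORA76 each mark several copies.

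H/ACA snoRNAs fold into a pair of hairpins joined by the H box and followed by an ACA triplet close to the 3′ end. Each one sits in a particle with the pseudouridine synthase dyskerin and the proteins NOP10, NHP2 and GAR1, and base pairs with ribosomal RNA to choose the uridines that become pseudouridine. Most mammalian members are cut out of introns of host genes, many of which encode ribosomal proteins or serve mainly to carry snoRNAs. The U17 snoRNAs, Snora73a and Snora73b, differ in that they are needed for cleavage of the ribosomal RNA precursor.

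Small RNA was read from 8 mouse samples in 3 groups. The MES group is 2 samples of mouse embryonic stem cells, grown without feeder cells and with leukemia inhibitory factor, not induced, and sequenced by TEsR on a MiSeq. MEF TEsR is 4 samples of mouse embryonic fibroblasts that carry a conditional knockout of the telomere protein TRF2 and the Cre recombinase Rosa26-CreERT2, whose Rosa26 promoter is active in most cell types. Of these, 2 were induced with 0.6 µM 4-hydroxytamoxifen for 48 hours and 2 were uninduced. The MEF TruSeq group is 2 samples of the induced fibroblasts, read with the standard TruSeq small RNA method on a HiSeq. TEsR ligates linkers to both ends of full-length small RNAs after cap removal, amplifies them without size selection and captures chosen targets by hybridisation. The RNAs that the capture probes target are not named in the sources used here.

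The 4 columns of MEF TEsR carry the codes mmS1, mmS2, pmS1 and pmS2, which the labels do not explain. They were therefore used as 1 group of fibroblasts, and induced and uninduced libraries were not compared. Sample titles give the TruSeq libraries as induced although their table is named as a control, and the groups here follow the titles. The TruSeq columns are named by their index, ATCACG and CGATGT, in that order below.

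Library totals were 2785150 and 2676776 counts in MES, 3221641 to 3768668 in MEF TEsR, and 8961221 and 8442960 in MEF TruSeq. In each library the 2 highest rows held 67.8% to 83.1% of all counts. Levels are given as CPM, a row's counts divided by the library total and scaled to a library of fixed size. The 9 stem cell miRNAs checked summed to 464 to 503 CPM in MES, to at most 1.33 CPM in MEF TEsR, where 7 of 9 were at 0 in every library, and to 0 in TruSeq. The 7 fibroblast miRNAs summed to 131 to 142 CPM in MES, where 4 of 7 were at 0, to 4621 to 20730 CPM in MEF TEsR and to 50.8 to 87.9 CPM in TruSeq. Blood, neural and liver miRNAs were at 0 in all libraries, and the muscle list reached at most 4.56 CPM. In these bulk samples, fewer cells of a type and less RNA per cell cannot be told apart.

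Transcript sequences from GENCODE vM21, on the mm10 build, show the features that the name H/ACA stands for. They are printed for 2 of the members that led the stem cell libraries (Snora43 and Snora7a), for Snora17, which lies beside Snora43, and for the 4 members with the highest TruSeq level per length (Snora16a, Snora44, SNORA50 and Snora28). Letters are in lower case, with the ANANNA match of the H box window that lies nearest the middle of the RNA and the ACA triplet near the 3′ end in capitals, which Snora44 lacks.
Snora43: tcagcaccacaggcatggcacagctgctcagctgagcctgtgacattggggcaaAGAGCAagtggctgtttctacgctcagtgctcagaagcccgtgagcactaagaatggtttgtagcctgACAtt
Snora17: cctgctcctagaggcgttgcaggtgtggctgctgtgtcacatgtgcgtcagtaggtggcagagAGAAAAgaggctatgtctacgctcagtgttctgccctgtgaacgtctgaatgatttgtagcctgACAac
Snora7a: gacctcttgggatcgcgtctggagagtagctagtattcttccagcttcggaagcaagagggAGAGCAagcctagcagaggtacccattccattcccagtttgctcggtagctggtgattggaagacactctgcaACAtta
Snora16a: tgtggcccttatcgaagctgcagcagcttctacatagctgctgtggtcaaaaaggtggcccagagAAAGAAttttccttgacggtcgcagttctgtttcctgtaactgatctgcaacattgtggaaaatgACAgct
Snora44: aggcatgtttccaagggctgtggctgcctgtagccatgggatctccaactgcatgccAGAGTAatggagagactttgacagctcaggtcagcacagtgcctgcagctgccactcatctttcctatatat
SNORA50: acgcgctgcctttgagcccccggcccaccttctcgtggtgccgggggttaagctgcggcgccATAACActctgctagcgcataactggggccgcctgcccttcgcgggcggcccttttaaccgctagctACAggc
Snora28: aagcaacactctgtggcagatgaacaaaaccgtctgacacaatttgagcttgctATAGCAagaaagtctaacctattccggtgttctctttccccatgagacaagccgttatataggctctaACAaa

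Snora43 lies at chr2:26637848-26637974 and Snora17 at chr2:26639190-26639321, both on the minus strand. GENCODE vM21 gives no host gene for them on that strand, while the count table has a row named Snhg7, the name of a snoRNA host gene, that spans Snora43 and little more. Snora7a, at chr6:115807975-115808114 on the minus strand, lies within Rpl32 and overlaps an exon of at least 1 of its transcripts. Snora16a, at chr4:132309465-132309600, and Snora44, at chr4:132309941-132310069, both lie within Snhg12 on the plus strand and overlap an exon of at least 1 transcript. SNORA50 is at chr11:106501243-106501377, on the plus strand and outside annotated genes of that strand. Snora28 is at chr12:111540941-111541067 on the plus strand, within Eif5, and overlaps an exon of at least 1 transcript.

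An ACA triplet ending 3 bases before the 3′ end, within 2 bases either way, was found in 47 of the 48 members with a sequence (97.9%), and Snora44 was the exception. The H box pattern ANANNA, searched on the transcribed strand between bases 50 and 90, was found in 42 of 48 (87.5%). Among the 83 rows named Snord, the C/D box snoRNAs, 6.02% held the ACA feature and 22.9% the H box pattern. Among 849 other snoRNA rows of 120 to 210 bases, a length range that takes in most members, the shares were 60.8% and 85.0%, so the H box pattern was nearly as frequent there. Snora65, Snora73a and Snora73b were among the members without an H box match in this window. The 12 members with no count in any library looked much like the counted ones in these letters, with the ACA feature in 11 of 11 with a sequence against 36 of 37.

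Across the 3 groups, the H/ACA members were a very small part of the TEsR libraries and a larger part of the TruSeq libraries. The summed members took 499 and 456 counts in MES, 22, 36, 40 and 35 in mmS1, mmS2, pmS1 and pmS2, and 9204 and 10339 in TruSeq. As CPM this was 175 ± 6.22 in MES (SD, n = 2), 9.41 ± 2.45 in MEF TEsR (SD, n = 4) and 1126 ± 140.0 in TruSeq (SD, n = 2). The ranges of the 3 groups did not overlap. Exact 95% binomial intervals for the share of a library ran from 0.000370% to 0.00154% over the MEF TEsR libraries and from 0.0155% to 0.0196% over the MES libraries. These intervals and all limits below cover counting error only, since no molecular identifiers are described for these reads.

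The mean share was 18.6 times as high in MES as in MEF TEsR and 119.7 times as high in TruSeq as in MEF TEsR. Each difference had an exact two-sided permutation p of 0.133, the smallest that 2 libraries against 4 allow, so this test cannot pass 0.05 here. Both comparisons share the 4 MEF TEsR libraries. The TruSeq comparison is between library methods within fibroblasts, and induction, instrument and method cannot be told apart in it where the MEF TEsR libraries of both states are pooled.

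**Figure D1:**
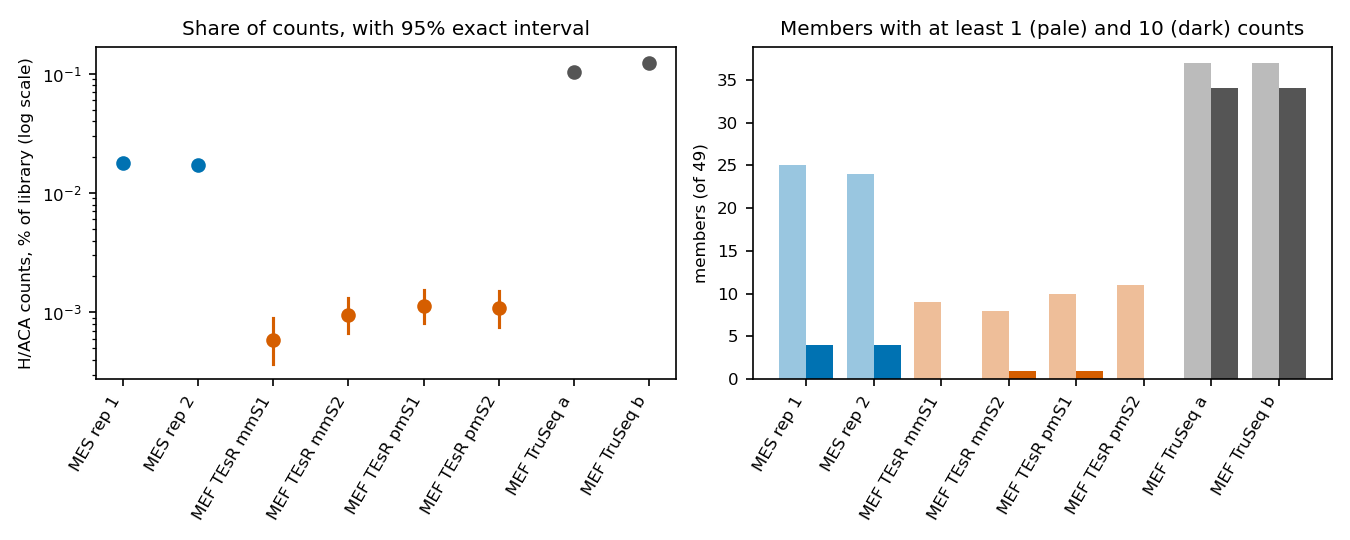
Left, share of each library's counts in the 49 H/ACA members in percent on a log axis, with exact 95% binomial intervals. Right, members with at least 1 count (pale) and at least 10 counts (dark), with a and b for the TruSeq indices ATCACG and CGATGT. The MES points lie between 0.0170% and 0.0179%, above all MEF TEsR points (0.000590% to 0.00113%) and below both TruSeq points (0.103% and 0.123%).

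C/D box snoRNAs, which guide methylation of ribosomal RNA, made up most TEsR counts. Rows named Snord held 86.2% ± 0.523 of counts in MES (SD, n = 2), 84.1% ± 2.41 in MEF TEsR (SD, n = 4) and 10.9% ± 0.0354 in TruSeq (SD, n = 2). For each H/ACA member count there were 4934 Snord counts in MES, 95520 in MEF TEsR and 97.2 in TruSeq, as means over libraries. The 3 Snora rows that the rule sets aside held far more counts in MES than the 49 members did, 27728 and 22756, against 41 to 170 in MEF TEsR and 738 and 629 in TruSeq. The low sum in MES is a value for these 49 rows and does not hold for every Snora row. Of the 83 Snord rows, 71 were tested in MES against MEF TEsR, of which 44 were called higher and 10 lower. Of all 273 rows tested there, 43.6% were called higher and 31.5% lower. In TruSeq against MEF TEsR 78 Snord rows were tested, of which 55 were called higher and 10 lower (edgeR, as below). Of all 352 rows tested there, 55.7% were called higher and 32.4% lower. The 2 Scarna rows, guides of the Cajal body, were called higher in TruSeq, and of the 3 Snora rows set aside 1 was called higher in MES and 0 either way in TruSeq.

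Detection followed the same order. At least 10 counts were reached by 4 members in each MES library, by 0 or 1 member in each MEF TEsR library and by 34 in each TruSeq library. At least 1 count was seen for 25 and 24 members in MES, for 8 to 11 in MEF TEsR and for 37 in both TruSeq libraries. After thinning every library to 2676776 counts, 27 and 30 members kept at least 10 counts in TruSeq. Only Snora28 and Snora74a had a count in all 8 libraries.

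No count was seen in any library for 12 of the 49 members. They are 4 SNORA43 copies on chromosomes 8, 8, 9 and 12, 2 SNORA17 copies on chromosomes 2 and 4, 1 SNORA50 copy on chromosome 4, 2 SNORA76 copies, SNORA77, Snora19 and Snora35. Snora35 lies in Htr2c, a serotonin receptor gene of the nervous system, and Snora19 in Eif3a, a translation initiation factor gene. For these members a count of 0 allows up to 3 counts in a library, or 0.335 to 1.12 CPM depending on its depth. Snora19 is an exception, because the annotated snoRNA gene Gm23658 has an identical sequence and also had no count. How reads that match both were counted is not given in the sources used here, so the 0 of Snora19 sets no such limit. No limit is set for SNORA77 either, since it lies on a patch scaffold outside the annotation and its copies were not checked. A further 6 members were counted in TruSeq and in no MES or MEF TEsR library: Snora23, Snora47, Snora52, Snora70, Snora78 and the SNORA17 copy in Tmem245, which had 1 and 2 counts.

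**Figure D2:**
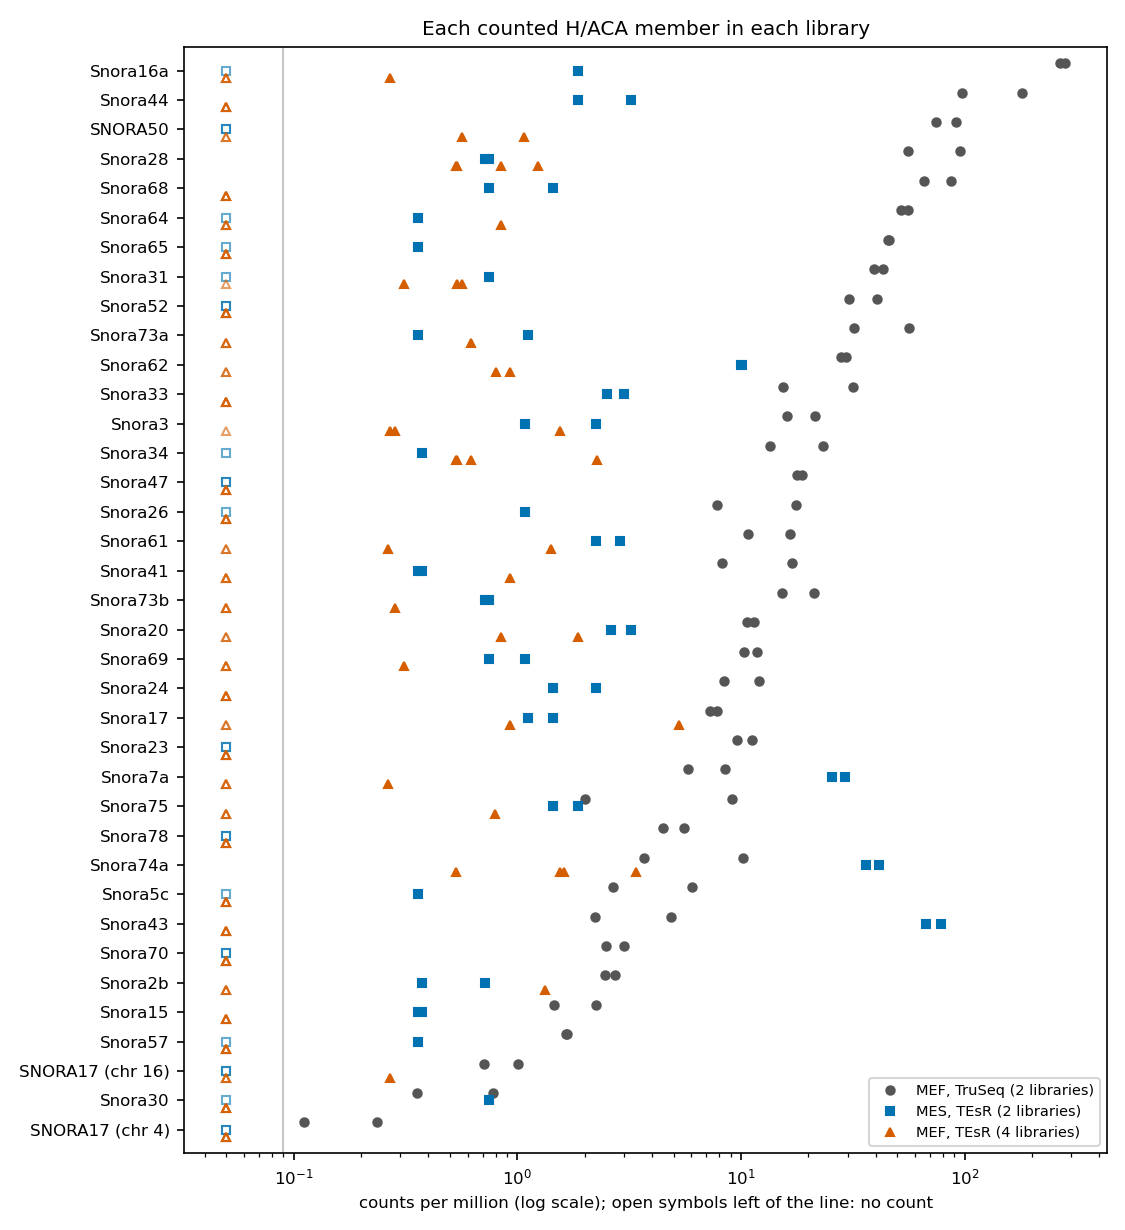
CPM on a log axis for the 37 members with a count, 1 symbol per library, ordered by TruSeq level per length, with open symbols left of the line for no count. The grey TruSeq circles lie to the right of all orange MEF TEsR triangles for each of the 37 members, while the blue MES squares of Snora43, Snora74a and Snora7a lie to the right of the TruSeq circles. The share of all rows that separate in this way was not computed, so the separation is not read as a trait of the members.

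In the stem cells, 4 members stood apart. Snora43, Snora74a, Snora7a and Snora62 held 85.2% of the members' pooled counts in MES, against 24.1% in MEF TEsR and 4.12% in TruSeq. They were picked as the 4 highest by MES counts, which favours MES in this comparison. The 4 highest members of each group's own ranking held 85.2% in MES, 54.9% in MEF TEsR and 50.8% in TruSeq. No other member reached 10 counts in a MES library.

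The MES libraries held 218 and 180 counts of Snora43, each of the 4 MEF TEsR libraries held 0, and the TruSeq libraries held 20 and 41. It was the highest member in MES, at 573 ± 61.4 CPM per kb (SD, n = 2), and ranked 30th of the members per kb in TruSeq. Taking the 3 counts that a count of 0 allows over the pooled MEF TEsR group, its CPM was at least 346-fold higher in MES. The pooled CPM in MES was also 20.8 times that in TruSeq, with a 95% counting interval of 15.9 to 27.7, though cell type and method differ there together. The row named Snhg7, 1 to 11 bases longer on each side, covers the same RNA and held 236 and 195 counts in MES. The other 4 rows with the SNORA43 name, on other chromosomes, had no count.

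Snora74a, first named U19 and a guide for large-subunit ribosomal RNA, was counted 101 and 111 times in MES, 6, 2, 12 and 5 times in the MEF TEsR libraries, and 33 and 86 times in TruSeq. MES and MEF TEsR did not overlap, and the pooled ratio was 22.1, with a 95% counting interval of 14.6 to 35.0. It is one of the few members with a count in every MEF TEsR library. TruSeq was closer to MEF TEsR for this RNA than for most members, at 6.93 ± 4.60 against 1.77 ± 1.19 CPM (SD, n = 2 and 4).

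Snora7a, carried by the ribosomal protein gene Rpl32, reached 81 and 68 counts in MES, with 0, 1, 0 and 0 in MEF TEsR and 76 and 49 in TruSeq. Its pooled ratio of MES over MEF TEsR was 389, and a single fibroblast count leaves the 95% counting interval at 68.7 to 15460. Snora62, a guide for large-subunit ribosomal RNA carried by Rpsa, reached 28 and 27 counts in MES, with 3, 0, 0 and 3 in MEF TEsR and 252 and 249 in TruSeq. Unlike the other 3, it was higher in TruSeq than in MES, at 28.8 ± 0.969 against 10.1 ± 0.0237 CPM (SD, n = 2 each).

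**Figure D3:**
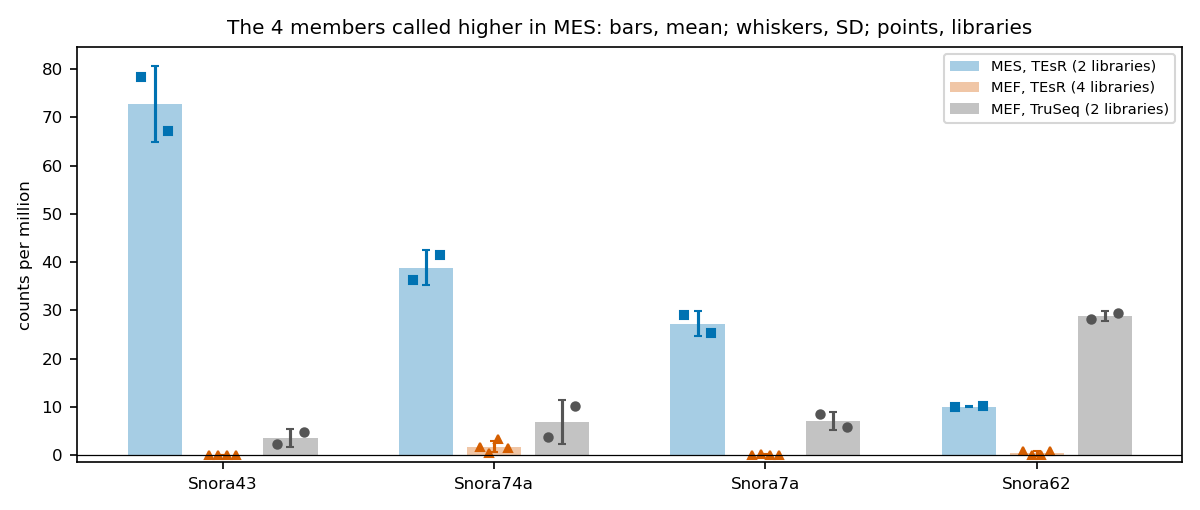
CPM of Snora43, Snora74a, Snora7a and Snora62 on a linear axis, with bars for the group mean, whiskers for the SD and a point for each library. MES exceeds MEF TEsR for all 4 members, and TruSeq exceeds MES only for Snora62, at 28.8 against 10.1 CPM.

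These 4 were the only members that passed the filter on low counts in the comparison of MES with MEF TEsR, and all 4 were called higher in MES by edgeR's quasi-likelihood test with Benjamini-Hochberg adjustment over 273 rows. The log2 fold changes were 11.52 ± 0.717 for Snora43 (SE, adjusted p = 6.5e-06), 8.70 ± 0.762 for Snora7a (4.7e-06), 5.29 ± 0.504 for Snora74a (7.7e-06) and 5.20 ± 0.951 for Snora62 (5.4e-04). The fitted value of Snora43 depends on the prior count, since its fibroblast libraries were all at 0. Of all rows tested, 43.6% were called higher and 31.5% lower in MES, with a median log2 fold change of 0.45 over all rows. Because members could pass the filter here only through their MES counts, the 4 of 49 called is a description of these RNAs and not a count in support of a direction for the rest.

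The remaining 45 members had 141 pooled counts in MES and 101 in MEF TEsR, at 25.8 ± 0.466 CPM (SD, n = 2) against 7.14 ± 2.46 CPM (SD, n = 4). This 3.62-fold ratio was well below the 18.6-fold ratio of all members, and the groups still did not overlap. A lower ratio follows from the choice, since the members set aside were the highest in MES. Snora20, carried by the chaperonin gene Tcp1, stood at 9 and 7 counts in MES beside 0, 0, 3 and 6 in MEF TEsR. Snora33, in the ribosomal protein gene Rps12, stood at 7 and 8 counts in MES beside none in MEF TEsR, which makes it at least 13.1-fold higher in pooled CPM. Some members went without such a difference: Snora28 stood at 2 and 2 counts in MES beside 2, 2, 3 and 4 in MEF TEsR, with a pooled ratio of 0.949 and a 95% counting interval of 0.220 to 3.20. SNORA50 had no count in MES and 4, 0, 2 and 0 in MEF TEsR.

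The fibroblast TEsR libraries held too few member counts for an order among most members. Snora17 had the highest mean level per kb there, yet its counts were 0, 20, 0 and 3, so 1 library, mmS2, set that rank. Snora74a came next, then Snora34 with 2, 2, 8 and 2 counts, Snora28, Snora20 and Snora3, the last carried by the ribosomal protein gene Rpl27a, with 1, 0, 1 and 5. Per kb these 6 lay between 3.98 ± 5.28 CPM for Snora3 and 11.8 ± 19.2 CPM for Snora17 (SD, n = 4), and no neighbours in that order differed beyond their spread. Without mmS2, Snora17 had 3 counts in the other 3 libraries together.

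In the TruSeq fibroblast libraries, by contrast, 37 members could be ranked. Snora16a led with 2520 and 2256 counts, 24.4% of the members' pooled counts, and a level of 2016 ± 72.8 CPM per kb (SD, n = 2). Snora44, from the same host gene Snhg12, followed with 868 and 1517 counts and 1072 ± 454 CPM per kb. Next came SNORA50 (821 and 630), Snora28 (500 and 804), Snora68 (588 and 735) and Snora64 (467 and 470). SNORA50, Snora28 and Snora68, at 616 ± 89.0, 595 ± 220 and 583 ± 116 CPM per kb, did not differ beyond their spread. Snora68 and Snora64, first named U68 and U64, are guides for large-subunit ribosomal RNA, and Snora64 is carried by Rps2 (chr17:24720772-24720905, plus strand). The order held between the libraries: across the 37 counted members, Spearman's rho of level per length was 0.953 for the TruSeq pair, whose points share library method and cell line. Of the 34 members with at least 10 counts in both, 27 lay within 2-fold, and Snora75 differed most between the pair, with 18 and 77 counts.

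The leading TruSeq members had few or no counts by TEsR. For Snora16a there were 0 and 5 counts in MES, and 1, 0, 0 and 0 in MEF TEsR. Snora44 was counted 9 and 5 times in MES and not at all in any MEF TEsR library, so that its pooled CPM was at least 651-fold higher in TruSeq. Snora65, a guide for large-subunit ribosomal RNA carried by Rpl12, had 412 and 385 TruSeq counts, beside 1 and 0 in MES and none in MEF TEsR. Snora52, in Rplp2, had 362 and 256 in TruSeq and none in any TEsR library. Spearman's rho of mean level per kb across the 37 members was 0.147 between MES and TruSeq and 0.236 between MEF TEsR and TruSeq, against 0.774 for the 2 MES libraries. Sparse TEsR counts limit these values, and cell type and method differ together in the first of them. Length (rho -0.0957) and GC content (rho 0.111) were not related to TruSeq level per kb in any strong way over the 37 members.

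Every one of the 37 counted members was higher in CPM in both TruSeq libraries than in each MEF TEsR library. Against MES, 33 were higher in both TruSeq libraries, and Snora43, Snora74a and Snora7a were lower in both. The share of all rows that separate in this way was not computed, so neither count is read as a trait of the members. With library size scaling, the median log2 fold change of TruSeq against MEF TEsR was 3.02 over all 352 rows tested. The comparison of TruSeq with MEF TEsR tested 28 of the 49 members, and edgeR's quasi-likelihood test, adjusted by Benjamini-Hochberg over 352 rows, called 26 higher in TruSeq and 0 lower. All 28 fitted changes were positive here. With scaling and fit on the members alone, those of Snora74a, Snora17, Snora20, Snora34 and Snora3 were negative. That list covers only tested members chosen for level, change or as U17, and others may also be negative. In the full fit none was therefore lower at an unadjusted p under 0.05, and DESeq2 called 25 higher and 0 lower. Of all rows tested, 55.7% were called higher and 32.4% lower in TruSeq. Members could pass the filter only through their TruSeq counts, so nothing is read from the count of 26 against that share.

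Called members averaging 10 CPM or more in TruSeq were ranked by fitted change, and the 8 largest fitted log2 fold changes belonged to Snora44 (12.24 ± 0.976, SE), Snora68 (11.41 ± 1.04), Snora16a (11.02 ± 0.770), Snora65 (10.69 ± 1.09), Snora52 (10.34 ± 1.13), Snora33 (9.68 ± 1.14), Snora47 (9.37 ± 1.12) and Snora26 (8.79 ± 1.17). Their adjusted p from edgeR ranged from 4.8e-08 for Snora16a to 4.8e-05 for Snora26. All but Snora16a had no MEF TEsR count, so for those 7 the pooled bounds are the safer figures: at least 361-fold for Snora68, 217.6-fold for Snora65, 168.7-fold for Snora52, 110.6-fold for Snora33, 86.8-fold for Snora47 and 59.8-fold for Snora26, beside Snora44 above. Snora33 had 138 and 267 TruSeq counts, Snora47, in Zbed3, had 168 and 150, and Snora26, in the noncoding gene Dancr, had 70 and 149.

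Members with several MEF TEsR counts gave measured ratios in place of bounds. SNORA50 was 198.1 times as high in TruSeq (95% counting interval 90.8 to 541), Snora28 97.1 times (54.1 to 195.0), Snora62 68.4 times (31.2 to 187.3), Snora3 38.3 times (18.4 to 95.9), Snora34 18.6 times (10.9 to 34.4) and Snora20 17.5 times (9.02 to 38.8). Lowest were Snora17 at 4.67 (2.98 to 7.62) and Snora74a at 3.90 (2.52 to 6.27). Neither was called: the log2 fold change was 1.37 ± 0.655 for Snora74a (SE, adjusted p = 0.064) and 1.41 ± 1.203 for Snora17 (adjusted p = 0.28) in edgeR's test. Snora17 rested on mmS2, and without that library its log2 fold change was 4.06 with an adjusted p of 0.0029. Snora74a was called without pmS1, at 1.85 (adjusted p = 0.019), and with library size scaling, at 1.96 (adjusted p = 0.031). Snora20 was called in the full test, at 3.44 ± 0.955 (adjusted p = 0.0044), and was not called without the TruSeq library ATCACG (2.97, adjusted p = 0.11) or in DESeq2 (2.81, adjusted p = 0.055).

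The U17 pair followed the same order of methods. MES held 1 and 3 counts of Snora73a, the MEF TEsR libraries 0, 0, 0 and 2, and TruSeq 288 and 474. For Snora73b the counts were 2 and 2 in MES, 0, 0, 1 and 0 in MEF TEsR, and 190 and 129 in TruSeq. Both lie on chromosome 4 in Snhg3 and were called higher in TruSeq, at 7.44 ± 0.969 (SE, edgeR adjusted p = 1.1e-05) and 7.15 ± 0.911 (9.0e-06). Their sequences differ at 7 of 205 positions, an identity of 96.6%, and how reads that match both were counted is not given in the sources used here, so their split is uncertain. The same holds for other members with a near copy: 19 counted members have another annotated snoRNA gene at least 90% identical, among them Snora17, Snora33, Snora65, Snora44, Snora26, Snora3 and Snora68.

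Members were also grouped by the class of their host gene. The 10 members in ribosomal protein genes were all counted and held 25.2% of member counts in MES, 13.5% in MEF TEsR and 27.0% in TruSeq. The 7 members in snoRNA host genes of GENCODE vM21 (Snhg3, Snhg8, Snhg9 and Snhg12) were all counted and held 5.34%, 7.52% and 44.7%. Here, only the name of the overlapping Snhg7 row, which spans little more than the snoRNA itself, would put Snora43 in this class. If Snora43 is put there, a choice made after seeing the data, the shares become 47.0%, 7.52% and 45.0%. The order of MES and TruSeq in this class therefore turns on where Snora43 is placed. Members with no annotated gene on their strand were 12, counting SNORA77, whose scaffold was not annotated, of which 4 were counted, with 42.5%, 21.8% and 8.56%, and Snora43 supplied 398 of their 406 pooled MES counts. No test between classes was made, and in MEF TEsR the shares rest on 133 counts in all.

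**Figure D4:**
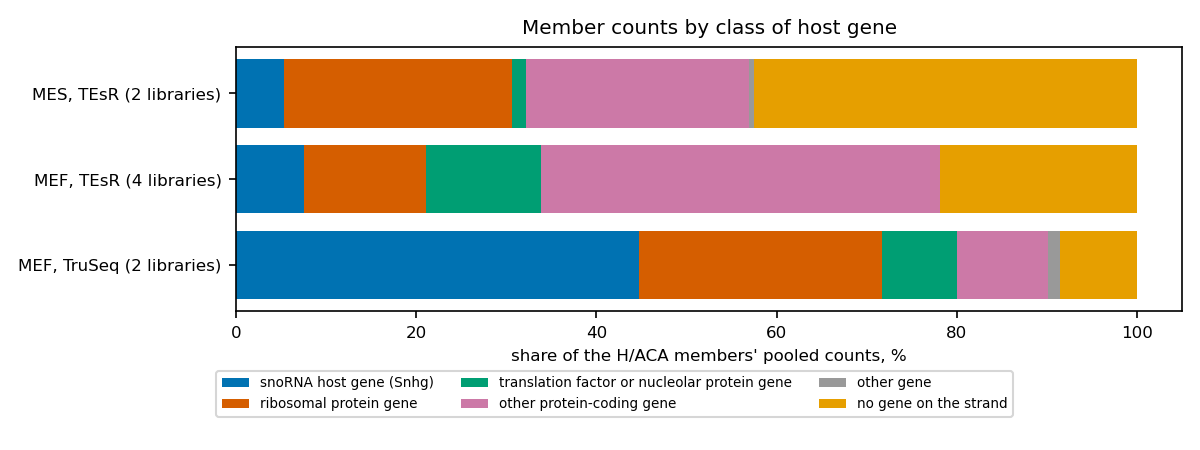
Share of the members' pooled counts, in percent, by class of host gene in each group. The Snhg segment is 44.7% in TruSeq and 5.34% in MES, and the segment with no gene on the strand, which holds Snora43, is 42.5% in MES. With Snora43 counted among Snhg genes, a choice made after seeing the data, the Snhg share in MES is 47.0%.

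Some members that share a host or lie side by side did not keep a fixed ratio of pooled counts between groups. Within Snhg12, Snora16a, Snora44 and Snora61 had pooled counts of 4776, 2385 and 236 in TruSeq, and of 5, 14 and 14 in MES. In MEF TEsR their pooled counts were 1, 0 and 6, too few to fix a ratio. Cell type and method differ together between MES and TruSeq throughout. Within Kansl2, a gene of a histone acetyltransferase complex, Snora34 and Snora2b had 318 and 45 pooled counts in TruSeq, 14 and 5 in MEF TEsR, and 1 and 3 in MES. The Kansl2 counts in MES are too few to fix a ratio. Snora43 and Snora17 lie side by side on chromosome 2. In MES, the pooled counts were 398 for Snora43 and 7 for Snora17, while in TruSeq they had 61 and 131, and in MEF TEsR 0 and 23. Library mmS2 held 20 of those 23. Within Snhg3, Snora73a and Snora73b had 762 and 319 pooled counts in TruSeq, 4 and 4 in MES, and 2 and 1 in MEF TEsR. Their TEsR counts are too few to show whether the ratio changed. No test was made of these ratios, and what moved them was not tested.

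Counting overlaps touches some of the values above. Of the 49 members, 17 overlap another row of the table, 7 of these with counts, and 4 of the 7 have the same counts as the other row: SNORA50, the SNORA17 copies in Gsk3b and Tmem245, and Snora16a, whose partner row is named snopsi28S-3327. Snora34 overlaps the row of mir-1291, which had 107 and 160 TruSeq counts against 121 and 197 for Snora34, so reads of the RNA and of a fragment cannot be told apart there. Snora74a overlaps AC121821.1, which had 15 and 26 TruSeq counts and none by TEsR.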

How the data were processed

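Small RNA of mouse embryonic stem cells and fibroblasts was measured in 8 samples. Per the file headers, the deposited values are raw counts, whole numbers of reads for each small RNA row, which the authors did not normalize. The build mm10 and the tools bedtools 2.25.0, SAMtools 1.2.1, BWA 0.7.12 and cutadapt are named in the submitters' processing notes. The TEsR column names carry the tag q10, which the labels do not explain, and the TruSeq column names do not. Whether reads were filtered differently for the library methods is therefore not known. For other settings, multiply mapped reads and strand use, nothing is given in the sources used here. All 5518 rows entered library totals, of 2676776 to 8961221 counts.

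CPM was computed from those totals, and the levels of members within a group are ranked per kb of row length. Shares of counts, Snord counts per member count and pooled counts of neighbouring members are not scaled for length. Comparisons used edgeR 4.0.16 (TMM, filterByExpr with a minimum count of 10, robust quasi-likelihood test, Benjamini-Hochberg over all rows, threshold 0.05) in R 4.3.3. Signs are MES minus MEF TEsR and TruSeq minus MEF TEsR, and SE is the log2 fold change over the root of F. The script was tested on simulated data. Shares used an exact permutation test, and counting intervals are exact at 95%. A count of 0 was taken to allow 3 counts. Alternatives were DESeq2 1.42.0, library size scaling, no filter, duplicates counted once, members only, each library left out and a replicate block. Induced against uninduced was not run because column codes are unexplained, and MES against TruSeq was not fitted because it was planned only if the MEF TEsR columns could not be used.

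Named are the 6 highest members per kb in each group, the 8 largest called changes per direction whose higher group averaged 10 CPM or more, the U17 pair, and members without counts. Further members named for an overlap, a host or a count of 5 or fewer were chosen with their values known. The members and lists were chosen with earlier results of these data known. Separate cultures are not stated in the labels for the replicates, and the p-values therefore reflect the spread of these samples, which may be technical. Hosts, strands and sequences come from GENCODE vM21, which holds 48 of the 49 members at the same coordinates. SNORA77, on a patch scaffold, is the other.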

Additional observations from a re-analysis of the deposited data

Results flagged for a closer look

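Among the 4 MEF TEsR libraries, 10 sets of values were checked for a library standing apart: the summed members and each member with more than 3 counts in any of these libraries. In 2 of the 10, the highest library stood apart from the other 3 by more than the 95% critical value of Dixon's ratio allows. That value is meant for continuous measurements, while the members' values are small counts with ties. Members also entered through their highest library, so no rate expected by chance is given. Snora34 was at 2.26 CPM in pmS1 (8 counts) against 2 counts in each other library, a gap of 0.948 of the range. Snora2b was at 1.33 CPM in mmS2 (5 counts) against none in the others, a gap of 1.0 of the range. Both lie in Kansl2, and both values are small counts.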

How the results depend on the processing

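The 4 members called higher in MES than in MEF TEsR were also 4 in DESeq2 and with library size scaling. The count stayed at 4 with duplicates counted once and with each MEF TEsR library left out. Without the filter, 13 of 31 members were called higher and 0 lower, where 159 of all 611 rows were called higher and 95 lower. Fitted on the members alone, without a filter, 6 were higher and 1, SNORA50, was lower, and Snora62 was not called (2.81, adjusted p = 0.31). For TruSeq against MEF TEsR, 26 became 25 in DESeq2, 27 with library size scaling and 26 to 27 with each MEF TEsR library left out. The count was 31 of 37 without the filter, where 246 of all 809 rows were called higher and 166 lower. On the members alone 5 were higher and 1, Snora74a, was lower. There, among tested members chosen for level, change or as U17, the log2 fold changes of Snora74a (-3.77), Snora17 (-4.73), Snora20 (-1.64), Snora34 (-1.59) and Snora3 (-0.60) turned negative. That scaling, TMM on the members' own totals, takes the members themselves as the reference. The median change over all rows, on the log2 scale, moved from 0.45 to -0.38 with library size scaling and 0.32 in DESeq2 in the first comparison, and from 2.42 to 3.02 and 1.78 in the second. Where a library left out left 1 sample in a group, that sample is assumed to vary like the others.

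With the numbers 1 and 2 as a replicate block, 4 of 4 members were again called higher in MES, with 0 lower, and 117 and 77 rows in all against 119 and 86. Deviations of same-numbered samples correlated at -0.0373 over 273 rows. The MEF TEsR columns are not assigned to samples, so this value cannot decide whether same-numbered samples share a batch. The TruSeq columns carry no number, so no block was possible there.

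The MES share was 16.5 to 19.9 times that of MEF TEsR with each library left out, 17.7 times over snoRNA rows and 20.7 times without the 2 highest rows. For TruSeq these were 106.5 to 130.2, 152.9 and 80.5. Without the 4 members called in MES, a choice made after seeing the data, they were 3.62 and 151.3. Members with at least 10 counts averaged 4.0, 0.5 and 34.0 in MES, MEF TEsR and TruSeq, with at least 1 count 24.5, 9.5 and 37.0, and thinned 4.0, 0.25 and 28.5. With each MEF TEsR library left out the 0.5 became 0.333 to 0.667. With Snora43 counted among Snhg genes, a choice made after seeing the data, the Snhg share in MES was 47.0% in place of 5.34%. The MEF TEsR libraries held 22 to 40 member counts each.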
